A study of Mus musculus with 1183 samples.

Results

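The 10 genes described here encode scavenger receptors and receptors for dead cells: Marco, Msr1, Mrc1, Cd163, Stab1, Lyve1, Mertk, Axl, Timd4 and Cd68. They were chosen by symbol, as 10 of the 18072 genes in the count table, and all 10 were present and passed the filter on low counts. Read counts came from 1183 single immune cells, taken from the distal lung of a female mouse (598 cells) and a male mouse (585 cells) exposed to hyperoxia, at postnatal day 7. Every cell shares the age and the oxygen exposure, animals in normal oxygen were not analysed here, and with 1 animal of each sex, sex and animal cannot be told apart. Sorting was for CD45, a marker of leukocytes, in all plates except those that gave 10 of the cells, whose gates are labelled CD31 or mesench. Among these were 1 male Mac IV cell and 2 male neutrophils labelled CD31, and 1 female Mac V cell labelled mesench. Each well became a library through Tn5 tagmentation, in which a transposase cuts cDNA and tags its ends. The labels give 16 subtypes, and most values below concern Mac II (27 female and 20 male cells), Mac III (182 and 208), Mac IV (63 and 79) and Mac V (66 and 45). Mac I has 1 cell.

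Scavenger receptors bind oxidised lipoproteins, bacteria, glycans and worn-out plasma proteins and carry them into the cell. Dead cells are recognised by phosphatidylserine on their surface, either directly, as by Tim-4 (Timd4), or through bridging proteins such as Gas6 and protein S, which the receptor kinases Mertk and Axl bind. In the lung, alveolar macrophages clear surfactant and inhaled material from the airspace, and interstitial macrophages lie in the tissue beside vessels, airways and nerves.

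Promoter sequences are shown for 4 members as examples: Stab1 and Timd4, with their highest level in Mac IV, Mrc1, nearly absent from Mac V, and Axl, with its highest level in Mac II. The RefSeq promoter table for GRCm38.p6 held 8 of the 10 members, each with 250 bases before and 50 after the start, written 5′ to 3′ on the gene's own strand. Capitals mark GAGGAA, a sequence of the kind bound by the macrophage factor PU.1, and TGCTGA, a core sequence recognised by Maf factors, each on either strand.
Stab1, chr14:31168592-31168891, minus strand: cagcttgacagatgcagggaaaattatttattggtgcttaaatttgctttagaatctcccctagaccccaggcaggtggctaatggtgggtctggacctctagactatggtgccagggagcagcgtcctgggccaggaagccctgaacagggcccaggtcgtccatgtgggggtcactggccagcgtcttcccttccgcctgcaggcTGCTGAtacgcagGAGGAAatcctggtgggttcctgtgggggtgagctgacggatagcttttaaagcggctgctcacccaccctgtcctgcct
Timd4, chr11:46810549-46810848, plus strand: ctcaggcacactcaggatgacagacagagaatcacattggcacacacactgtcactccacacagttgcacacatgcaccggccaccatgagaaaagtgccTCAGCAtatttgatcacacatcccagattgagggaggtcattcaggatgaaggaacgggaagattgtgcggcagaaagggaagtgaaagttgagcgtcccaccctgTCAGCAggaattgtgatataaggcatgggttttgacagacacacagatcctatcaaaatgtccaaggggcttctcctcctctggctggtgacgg
Mrc1, chr2:14229164-14229463, plus strand: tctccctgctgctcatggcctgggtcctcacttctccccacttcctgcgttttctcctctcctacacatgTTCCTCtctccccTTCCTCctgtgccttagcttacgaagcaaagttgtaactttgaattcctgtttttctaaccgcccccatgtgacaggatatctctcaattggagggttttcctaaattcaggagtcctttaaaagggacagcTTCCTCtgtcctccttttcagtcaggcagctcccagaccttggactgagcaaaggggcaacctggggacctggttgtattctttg
Axl, chr7:25788684-25788983, minus strand: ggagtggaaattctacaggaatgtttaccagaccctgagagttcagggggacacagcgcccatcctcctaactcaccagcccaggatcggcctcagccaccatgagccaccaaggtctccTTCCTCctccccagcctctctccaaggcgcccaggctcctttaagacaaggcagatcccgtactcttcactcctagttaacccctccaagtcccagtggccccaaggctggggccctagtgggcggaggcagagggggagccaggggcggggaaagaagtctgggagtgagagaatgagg
The Maf sequence occurred 1 time in the Stab1 window and 2 times in the Timd4 window, and among all 32851 promoters of the same length 19.5% held it. GAGGAA or its complement occurred 3 times for Mrc1 and 1 time each for Stab1 and Axl, and 28.3% of all promoters held it. Of the promoters not printed, those of Cd163 and Mertk held neither sequence. That of Marco held GAGGAA or its complement 1 time and that of Cd68 2 times, both without the Maf sequence. A match describes letters in the window only.

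Levels are given as CPM, the reads of a gene relative to all reads summed over the cells of a subtype in 1 animal, scaled to a common total, female before male. A cell was called positive for a gene when it kept at least 5 reads, equal to 50 CPM, after thinning at random to 100000 reads. In a sum, fewer positive cells and less RNA per cell cannot be told apart, so the share of positive cells stands beside it. The 8 sums of Mac II to Mac V held 26507095 to 235566546 reads. As a level in cells that should lack most members, 135 lymphocytes (B, T, NK and IL cells) held 0 positive cells for Marco, Cd163 and Timd4, 0.741% for Lyve1, 1.48% for Msr1, 2.22% for Mrc1 and for Mertk, 2.96% for Axl, 4.44% for Stab1 and 11.1% for Cd68. The median cell of a lymphocyte sum held 628097 to 1600568 reads and that of a macrophage sum 1006746 to 1489855.

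The labels were set beside marker lists, counting a marker at 10 CPM or more in both animals. Mac III held 10 of 10 alveolar macrophage markers, Mac IV 10 of 10 markers of macrophages with C1q, and Mac V 10 of 10 monocyte markers. Mac II held 8 of the alveolar markers, 8 of the C1q macrophage markers and 4 of the monocyte markers. Mac V also held 2 of the alveolar and 5 of the C1q macrophage markers, and Mac III 3 C1q macrophage and 3 monocyte markers. Of 8 neutrophil markers, Mac V held 4, Mac II 3, Mac III 2 and Mac IV 1. Mac IV also held 6 of 8 markers of blood vessel endothelium, with a summed level of 1073 and 319.5 CPM, against at most 72.42 CPM in a sum of Mac II, Mac III or Mac V. Its cells with 3 or more of these markers numbered 9 of 63 and 4 of 79. Without them the Mac IV levels of Marco, Msr1, Mrc1, Mertk, Axl, Timd4 and Cd68 were 1058 and 348.2, 466.6 and 205.1, 1438 and 1597, 80.8 and 66.5, 112.9 and 109.4, 279.9 and 61.9, and 1412 and 1504 CPM. Of the other lists, Mac IV held 4 alveolar and 6 monocyte markers of 10, 3 of 8 dendritic cell, 3 of 8 mesenchyme and 3 of 10 T, NK and innate lymphocyte markers, and 1 platelet marker of 6, Ppbp. Its red cell genes summed to 9.11 and 2751 CPM, female before male. The part of any of these in the member levels was not tested.

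**Figure D1:**
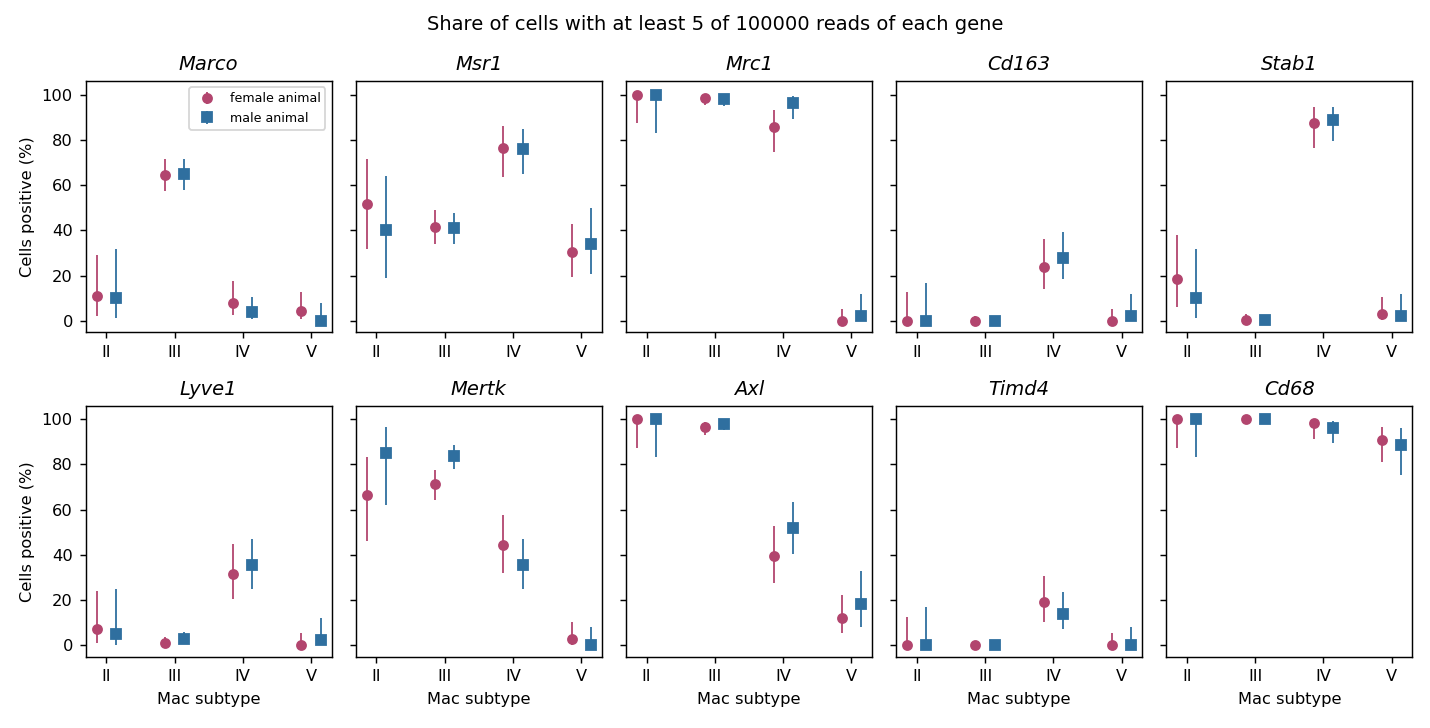
Percent of cells positive (vertical axis) in Mac II to Mac V (horizontal axis) for each of the 10 genes, circles for the female and squares for the male animal, bars for exact 95% Clopper-Pearson intervals, which cover counting error only. Marco stands at 64.6% and 64.9% in Mac III, Stab1 at 87.3% and 88.6% in Mac IV, and Mrc1 at 0% and 2.27% in Mac V.

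The class A scavenger receptors Marco and Msr1 differed in how many cells carried them. Marco, which binds bacteria and inhaled particles, was found in 64.6% of female (95% interval 57.2 to 71.6) and 64.9% of male (58.0 to 71.4) Mac III cells, with summed levels of 988.2 and 1129 CPM. Mac IV had summed levels of 908.3 and 335.7 CPM, but these came from 5 of 63 and 3 of 79 cells. A single cell gave 62.1% of the Marco reads of female Mac IV and 98.6% of those of male Mac IV, at 11130 and 14510 CPM. In Mac III the top cell gave 7.04% and 3.27%, at 8347 and 8891 CPM. So the sums of Mac III and Mac IV lay near each other in the female while the shares of positive cells lay far apart. The Marco-positive Mac IV cells carried a median of 1 of 10 alveolar markers in each animal, as did the other Mac IV cells, against 6 in Marco-positive Mac III cells. They carried a median of 6 and 9 of the 10 C1q macrophage markers, against 9 in the other Mac IV cells of each animal, and 3 and 2 of the 10 monocyte markers, against 1.

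Within Mac III, other members were found in cells with and without Marco. Msr1 was positive in 41.0% and 44.4% of the Marco-positive cells and in 42.2% and 34.2% of the rest. Axl was found in 95.7% and 97.8% of the positive cells and in 98.4% and 98.6% of the rest, and Mertk in 70.1% and 85.9% against 73.4% and 79.5%. The median number of alveolar markers was 6 in either set. The share with Marco was 69.4% and 59.0% on the female CD45 plates and 67.0% and 62.7% on the male ones. Mac II held 133.3 and 7.73 CPM of Marco, with 3 of 27 and 2 of 20 cells positive, and Mac V 32.2 and 0 CPM. In Mac V 3 female cells were positive, and the male sum allows up to 0.0652 CPM.

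Msr1, which takes up modified lipoproteins, had 425.5 and 201.4 CPM in Mac IV and 74.5 and 72.1 CPM in Mac III. It was found in 76.2% and 75.9% of Mac IV cells, 41.4% and 40.9% of Mac III cells, 14 of 27 and 8 of 20 Mac II cells, and 30.3% and 34.1% of Mac V cells. Both Mac IV libraries were above all other macrophage libraries, and a single cell gave 29.9% of the female Mac IV reads. Mac II and Mac V overlapped between animals.

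**Figure D2:**
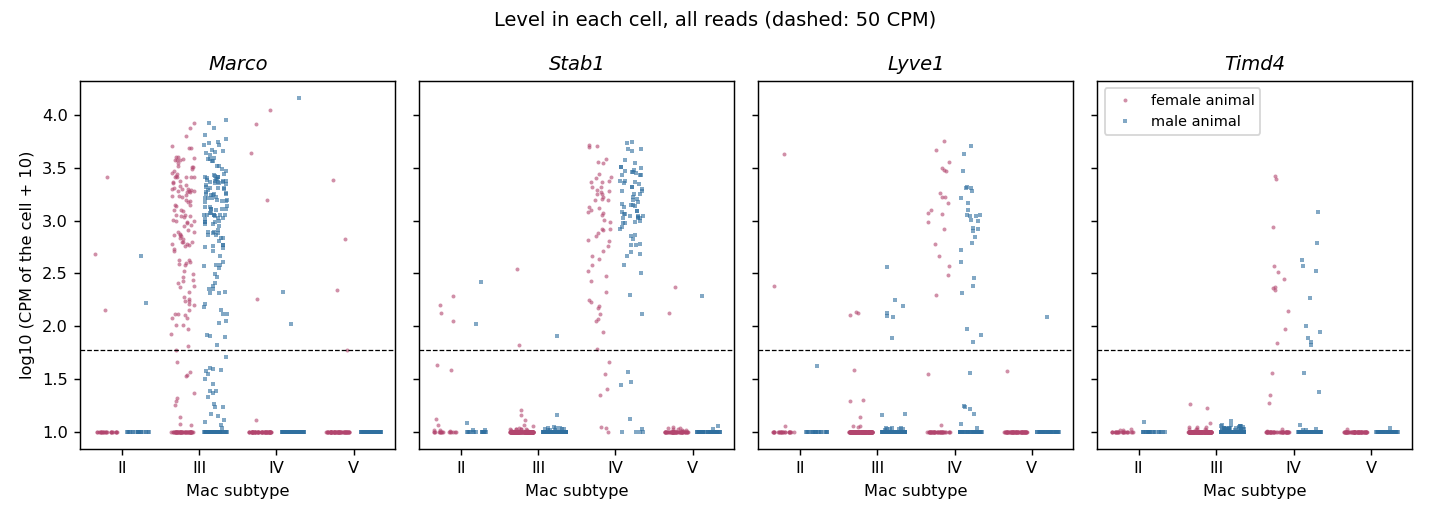
Level of Marco, Stab1, Lyve1 and Timd4 in each cell of Mac II to Mac V, as log10 of CPM plus 10 on the vertical axis, from all reads of the cell, circles for female and squares for male cells, with the dashed line at 50 CPM. Mac III cells spread over the whole range of Marco, and a few Mac IV cells reach its top while most lie at the bottom.

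Mrc1 (CD206), the mannose receptor of macrophages, divided Mac V from the other 3. Its summed level was 715.2 and 584.1 CPM in Mac II, 916.4 and 968.7 in Mac III, 1361 and 1628 in Mac IV, and 0.574 and 3.50 in Mac V. All Mac II cells were positive, as were 98.3% and 98.1% of Mac III cells and 85.7% and 96.2% of Mac IV cells. In Mac V the count was 0 of 66, which with an exact interval allows up to 5.44%, and 1 of 44, and that cell held 90.7% of the male reads. The ordering Mac IV, Mac III, Mac II did not overlap between animals, although the differences among these 3 did not pass the test below. DC II was the next subtype, at 197.6 and 29.5 CPM, from 2 of 11 and 1 of 14 cells.

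Cd163, the receptor for haemoglobin bound to haptoglobin, stood far higher in Mac IV than in the other macrophages, although most Mac IV cells were not positive. Mac IV had 142.5 and 74.0 CPM, from 15 of 63 (23.8%) and 22 of 79 (27.8%) cells. The Mac IV cells with 3 or more endothelial markers held 17.1% and 10.3% of these reads, and without them the level was 137.9 and 68.9 CPM, from 11 of 54 and 19 of 75 cells. Mac II had no read in either animal and Mac III had 4 and 2 reads. In Mac V the female had 3 reads, and all 368 male reads came from 1 cell. The sum of Mac IV was at least 2452-fold above that of Mac II, taking 3 reads over the Mac II group as the limit.

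Stab1, a scavenger receptor for acetylated lipoproteins, matrix fragments and dying cells, had 1185 and 1503 CPM in Mac IV, found in 87.3% and 88.6% of cells. Without the cells with endothelial markers it had 1244 and 1456 CPM, from 47 of 54 and 66 of 75 cells. Mac II held 19.7 and 13.4 CPM, Mac III 3.46 and 0.306, and Mac V 4.57 and 4.04. No library of another macrophage subtype came near either Mac IV library. Outside the macrophages the highest level was 68.0 CPM, in female B cells, where 1 cell gave 92.5% of the reads. Male IL cells had 64.5 CPM, from 2 of 5 cells, and male neutrophils 61.3 CPM, from 6 of 78 cells. Of these 6 neutrophils, 5 carried 3 or more endothelial markers, and without such cells the level was 14.7 CPM, with 1 of 72 cells positive.

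Lyve1, a hyaluronan receptor best known from lymphatic vessels and also used as a mark of macrophages around blood vessels, had 577.3 and 374.9 CPM in Mac IV, in 31.7% and 35.4% of cells. Mac III held 2.33 and 5.79 CPM, Mac V 0.0478 and 1.56, and Mac II 48.8 and 1.21. The female Mac II level came from 2 cells, of which 1 gave 92.0% of the reads and carried 3 or more endothelial markers. Of the Mac IV cells with 3 or more endothelial markers, 8 of 9 female and 4 of 4 male cells were positive for Lyve1, and they held 39.8% and 13.7% of its Mac IV reads. Without them the level was 405.4 and 335.8 CPM, in 22.2% and 32.0% of cells, so most of the Lyve1 reads remained. In male neutrophils Lyve1 stood at 248.4 CPM. There 6 of the 7 positive cells carried 3 or more endothelial markers, and they held 99.6% of the reads, while Lyve1 was positive in 1 of the other 72 cells. No lymphatic endothelial marker of 6 reached 10 CPM in both animals in Mac IV. What part cells with endothelial messages play in the Lyve1 level was not tested beyond these counts.

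Among the receptors for dead cells, the receptor kinases Mertk and Axl had their highest levels in Mac II and Mac III. Axl stood at 1087 and 1189 CPM in Mac II, 588.0 and 440.9 in Mac III, 103.6 and 105.7 in Mac IV, and 48.8 and 82.0 in Mac V. These 4 ranges did not overlap. It was positive in all Mac II cells, in 96.7% and 98.1% of Mac III cells, in 39.7% and 51.9% of Mac IV cells and in 12.1% and 18.2% of Mac V cells. DC II was the only other subtype with more than 100 CPM in both animals, at 327.4 and 141.8, with 7 of 11 and 9 of 14 cells positive.

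Mertk stood at 198.3 and 230.7 CPM in Mac II and 193.6 and 227.1 in Mac III, which overlapped, and at 88.5 and 64.3 in Mac IV. Its share of positive cells was 66.7% and 85.0% in Mac II, 71.3% and 83.7% in Mac III and 44.4% and 35.4% in Mac IV. In Mac V, 2 of 66 and 0 of 44 cells were positive, and 1 cell gave 90.6% of the female reads.

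Timd4, which binds phosphatidylserine directly, was found in Mac IV at 248.5 and 59.7 CPM, in 12 of 63 and 11 of 79 cells. A single cell gave 50.6% of the female and 46.1% of the male reads. Mac II, Mac III and Mac V had no positive cell and at most 0.132 CPM. A few dendritic cells carried it, 2 of 16 female DC I, 2 of 11 female DC II and 1 of 11 male DC III cells.

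Cd68, a glycoprotein of late endosomes and lysosomes that is used as a mark of macrophages in general, was found in all Mac II and Mac III cells. It was positive in 98.4% and 96.2% of Mac IV cells and in 90.9% and 88.6% of Mac V cells. Its levels were 884.5 and 1181 CPM in Mac II, 1389 and 1455 in Mac III, 1517 and 1496 in Mac IV and 816.1 and 819.9 in Mac V. DC II followed at 608.5 and 600.3 CPM. The Mac I cell had 981.9 CPM of Cd68, 93.4 of Axl, 25.8 of Mrc1 and 10.7 of Msr1, and no read of Marco, Cd163, Lyve1, Mertk or Timd4.

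**Figure D3:**
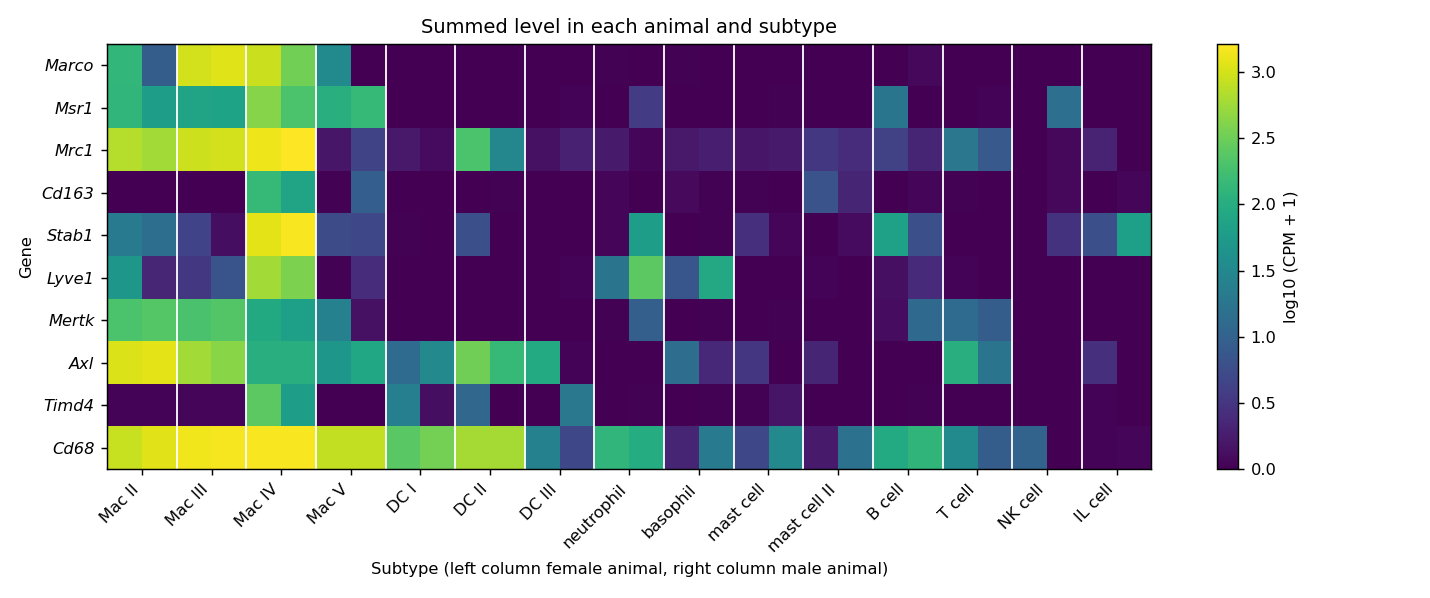
Summed level of the 10 genes (rows) in 15 subtypes (columns, female left and male right of each pair), coloured by log10 of CPM plus 1. Mac II to Mac V hold most of the signal, DC II holds Axl and Cd68, and the male neutrophil column holds Lyve1 at 248.4 CPM.

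Differences between subtypes were tested on the 8 sums with edgeR's quasi-likelihood test over 14400 genes, at a Benjamini-Hochberg adjusted p under 0.05. The 6 comparisons share libraries, so their values are given side by side only. How cells were assigned to subtypes is not given in the sources used here. If these same counts were used, the calls describe the labelled classes and their p-values are too small. Members were called in 17 of 60 tests, where 1.13% to 7.54% of all genes were called in a comparison. In a fit of all 15 subtypes, which includes sums over few cells, the common coefficient of variation was 1.15 against 0.848, and only 3 of the 17 calls, those of Mrc1 against Mac V, remained. Every adjusted p below is edgeR's for n = 2 animals, and with all 15 subtypes those of the other 14 calls lay between 0.171 and 1.

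**Figure D4:**
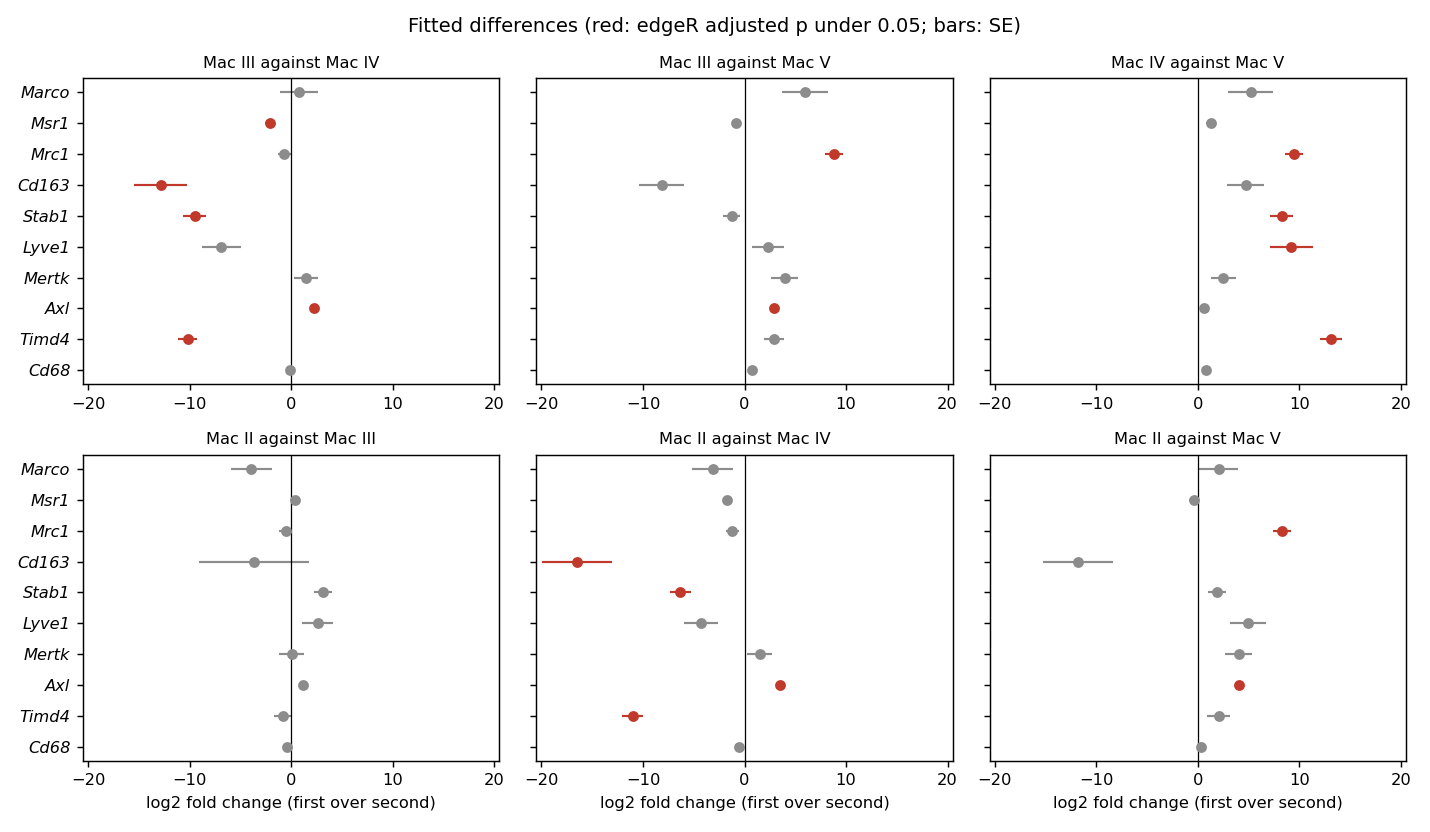
Fitted log2 fold change of each gene (horizontal axis, first subtype over second) with its standard error as a bar, in the 6 comparisons, red where the adjusted p was under 0.05. Stab1 and Timd4 lie on the Mac IV side in all 3 comparisons with Mac IV, and Mrc1 lies at 8.29 to 9.49 in the 3 comparisons with Mac V.

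Between Mac III and Mac IV, 5 of 10 members were called, where 5.24% of all genes were (2.45% with the higher level in Mac III, 2.78% in Mac IV). Axl was higher in Mac III, by 2.28 on the log2 scale (SE 0.32, adjusted p = 0.00597). Higher in Mac IV were Stab1 (log2 fold change -9.51, SE 1.17, adjusted p = 0.00364), Timd4 (-10.19, SE 0.94, adjusted p = 0.00117), Cd163 (-12.84, SE 2.60, adjusted p = 0.0367) and Msr1 (-2.10, SE 0.46, adjusted p = 0.0393). Cd163 was not called with the animal as a block (adjusted p = 0.061), nor without either Mac III library (0.211 without the female, 0.235 without the male) or either Mac IV library (0.135 and 0.111). Msr1 was lost without either Mac III library (0.247 and 0.259), without the female Mac IV library (0.181), without either Mac V library (0.0508 and 0.0577) and in the shared sequencing run alone (0.0723). Lyve1 missed the threshold (-6.87, SE 1.89, adjusted p = 0.0813), as did Marco (0.77, SE 1.85, adjusted p = 0.889), whose Mac IV sums rest on single cells. The members' median log2 fold change was -1.39, against -0.0468 over all genes. This median and those below describe genes chosen with earlier results of these data known, and the difference from all genes was not tested.

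Between Mac IV and Mac V, 4 members were called, all higher in Mac IV, where 7.07% of all genes were called, 3.74% with the higher level in Mac IV and 3.33% in Mac V. They were Mrc1 (log2 fold change 9.49, SE 0.91, adjusted p = 0.00123), Stab1 (8.23, SE 1.11, adjusted p = 0.00551), Lyve1 (9.20, SE 2.10, adjusted p = 0.0400) and Timd4 (adjusted p = 0.000958). For Timd4, Mac V had 2 reads in all, and the ratio of the sums was 9352 with a counting interval of 2589 to 77230. Lyve1 was not called with the animal as a block (0.0663) or without any 1 of the Mac III, Mac IV or Mac V libraries (0.0556 to 0.108), and remained called without the cells with endothelial markers. The members' median was 4.94, against 0.104.

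Between Mac III and Mac V, Mrc1 (8.81, SE 0.88, adjusted p = 0.00107) and Axl (2.90, SE 0.32, adjusted p = 0.00151) were higher in Mac III and no member was higher in Mac V, where 7.54% of all genes were called, 3.64% for Mac III and 3.9% for Mac V. Marco differed by 5.96 (SE 2.28, adjusted p = 0.158), and 1 cell gave 92.1% of its female Mac V reads. Mertk differed by 3.97 (SE 1.34, adjusted p = 0.119). The members' median was 2.61, against 0.111.

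Mac II against Mac III had 0 called members, where 1.13% of all genes were called, 0.806% for Mac II. An unadjusted p under 0.05 in edgeR was found for 2 members, Axl and Stab1, and for 1897 of the 14400 genes. DESeq2 called 2 members and 1189 of the 14400 genes. Axl was 1.17 higher in Mac II on the log2 scale (SE 0.31, adjusted p = 0.163), without overlap of the animals. Mac II against Mac IV had 4 called members, where 3.94% of all genes were called, 2.24% for Mac II and 1.7% for Mac IV. Axl was higher in Mac II (3.45, SE 0.33, adjusted p = 0.00251). Stab1 (-6.34, SE 1.03, adjusted p = 0.0176), Timd4 (-11.03, SE 1.01, adjusted p = 0.00181) and Cd163 (adjusted p = 0.0490) were higher in Mac IV. Stab1 was lost without either Mac II library (0.0806 and 0.103), without the male Mac IV library (0.0737) and in the shared run alone (0.0943). Cd163 was lost with the animal as a block (0.0794), without either Mac II, Mac III or Mac IV library (0.0754 to 0.140), in the shared run (0.0515), on CD45 plates alone (0.0501) and without the cells with endothelial markers (0.0505). Mac II against Mac V had 2 called members, Axl (4.07, SE 0.34, adjusted p = 0.000761) and Mrc1 (8.29, SE 0.86, adjusted p = 0.00234), both higher in Mac II, where 3.97% of all genes were called, 2.41% for Mac II.

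Within Mac IV some members were found in the same cells more than others. Of Cd163-positive cells, 9 of 15 and 16 of 22 were also positive for Lyve1, against 11 of 48 and 12 of 57 of the other cells. Without the cells with endothelial markers these were 6 of 11 and 13 of 19, against 6 of 43 and 11 of 56. Mrc1 and Stab1 ranked the cells alike, with a Spearman correlation of 0.691 over 63 and 0.673 over 79 cells, and Lyve1 followed Stab1 at 0.445 and 0.497. These are descriptions of cells that share an animal and plates. Timd4 was found in 4 of 20 and 6 of 28 Lyve1-positive cells and in 8 of 43 and 5 of 51 of the rest, so its cells lay on either side.

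Genes known from interstitial macrophages divided with Lyve1 in the same direction in each animal. F13a1, the A chain of coagulation factor XIII, was positive in 17 of 20 and 25 of 28 Lyve1-positive cells, against 16 of 43 and 22 of 51 of the other cells. Gas6, the ligand of Axl and Mertk, was positive in 18 of 20 and 26 of 28, against 21 of 43 and 31 of 51. Folr2, a folate receptor, was positive in 12 of 20 and 14 of 28, against 9 of 43 and 10 of 51. The antigen presentation gene H2-Ab1 went the other way, at 0 of 20 and 1 of 28 against 11 of 43 and 5 of 51. The chemokine receptor gene Ccr2 was positive in 0 of 20 and 0 of 28, against 12 of 43 and 7 of 51. Axl was positive in 3 of 20 and 10 of 28, against 22 of 43 and 31 of 51. Each of these 6 differences kept its direction without the cells with endothelial markers, for example F13a1 at 12 of 12 and 22 of 24 against 16 of 42 and 22 of 51. Cx3cr1, the fractalkine receptor, did not divide the cells, at 16 of 20 and 25 of 28 against 34 of 43 and 47 of 51.

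**Figure D5:**
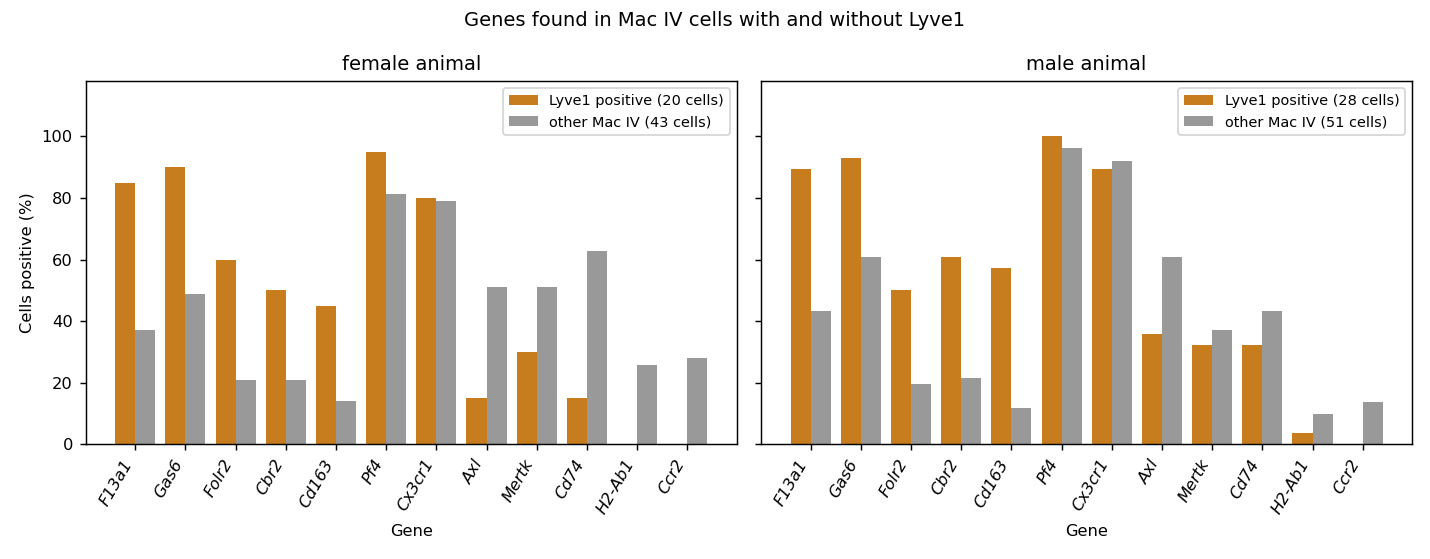
Percent of Mac IV cells positive for 12 genes (horizontal axis), in Lyve1-positive cells (orange) and other Mac IV cells (grey), for the female (left, 20 and 43 cells) and male animal (right, 28 and 51 cells), with no error shown. F13a1, Gas6, Folr2, Cbr2 and Cd163 stand higher in the Lyve1-positive cells, and Axl, Cd74, H2-Ab1 and Ccr2 lower.

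Other genes of uptake were read from lists and the main fit. There 5.24% of all genes were called in Mac III against Mac IV. Against Mac V it was 7.54% for Mac III and 7.07% for Mac IV. The fit of all 15 subtypes called 41, 69 and 26 genes in these comparisons, against 754, 1086 and 1018. Which of the listed genes it kept is not given here. Of 20 tested genes listed as other scavenger and endocytic receptors, Mac III had the higher level of 3 called genes and Mac IV of 7. The list also holds genes that are not receptors, such as Dab2. Fcrls, a scavenger receptor with Fc-receptor-like domains, stood at 0.0239 and 0.0637 CPM in Mac III and 1122 and 1089 in Mac IV, and Folr2 and the lectin Mgl2 at 110.6 and 72.3 and at 66.3 and 68.0 CPM in Mac IV, with 0 and 4 reads in Mac III. Against Mac V, 6 were higher in Mac IV and 1 was lower. Dab2, an adaptor for endocytosis, had 1364 and 1719 CPM in Mac IV, 429.6 and 368.6 in Mac III and 4 reads in Mac V, where Mrc1 was also nearly absent.

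Of 13 tested other dead cell receptors, 5 were called, 2 for Mac III and 3 for Mac IV. Trem2, a lipid receptor, was higher in Mac IV than in Mac III (log2 fold change -1.64, SE 0.30, adjusted p = 0.0195) and than in Mac V (2.47, SE 0.31, adjusted p = 0.00465). Cd300lf, a phospholipid receptor, had its higher level in Mac III when compared with Mac IV (3.86, SE 0.46, adjusted p = 0.00309). Between Mac IV and Mac V, 1 of the 13, Trem2, was higher in Mac IV and 3 in Mac V, among them Cd300lf. Between Mac III and Mac V, 3 of the 13 were higher in Mac V and 0 in Mac III; Itgav, a subunit of integrins that bind bridging proteins, was higher in Mac V (-2.16, SE 0.44, adjusted p = 0.0231).

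Gas6, a bridging molecule of the receptor kinases, had 292.8 and 327.0 CPM in Mac IV and 0.234 and 0.284 CPM in Mac III (log2 fold change -10.23, SE 0.88, adjusted p = 0.000888), whereas Axl was higher in Mac III. The complement gene C1qa, whose product tags dead cells, had 3916 and 5218 CPM in Mac IV, 204.2 and 122.4 in Mac II, 2 reads in Mac III and none in Mac V. Of 14 tested bridging genes, 2 were higher in Mac III and 3 in Mac IV. Thbs1, thrombospondin 1, was higher in Mac V than in Mac III, at 882.1 and 1506 CPM against 0.0191 and 2.39 (adjusted p = 0.0190).

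Among 20 tested genes of engulfment, 3 were higher in Mac III and 1 in Mac IV, and 0 were higher in Mac IV and 6 in Mac V when those were compared, led by Abca7, Ptk2b and Elmo2. Among 25 genes of digestion and cargo handling, Slc40a1, the iron exporter ferroportin, had 757.2 and 449.8 CPM in Mac IV and 36.9 and 17.8 in Mac III (adjusted p = 0.00335). Lgmn, a lysosomal protease, had 3351 and 2588 CPM against 245.1 and 230.9 (adjusted p = 0.000525). Atp6v0d2, a proton pump subunit, had 1554 and 1321 CPM in Mac III against 12.2 and 40.2 in Mac IV (adjusted p = 0.00254). In this list 2 genes were higher in Mac III and 2 in Mac IV, and against Mac V 5 were higher in Mac III, 5 in Mac IV and 0 in Mac V in either case.

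Of 14 genes listed as macrophage transcription factors, 3 were higher in Mac III and 4 in Mac IV. The list also holds Car4, a carbonic anhydrase and no transcription factor. Maf had 719.7 and 729.0 CPM in Mac IV, 30.5 and 30.7 in Mac II, 0.325 and 1.21 in Mac III and 79.4 and 53.3 in Mac V. It was called against Mac III (adjusted p = 0.00065). Of the 10 genes of self recognition, 1 was higher in Mac III, Sirpa, the receptor for CD47 (1.21, SE 0.28, adjusted p = 0.0469), and 1 in Mac IV.

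The genes whose level over 15 subtypes was most like that of each member were found by Pearson's r of log2 CPM plus 1, among 8128 genes with 50 CPM or more in at least 1 subtype. These describe 15 subtypes, each as the mean of the same 2 animals, so a high r need not mean a like order among macrophages. Marco was most like Colec12 (r = 0.92), Msr1 most like Trem2 (0.938), Mrc1 most like Dab2 (0.947) and Stab1 most like Ednrb (0.87). Colec12 stood at 16.8 and 10.3 CPM in Mac III and 64.1 and 84.7 in Mac IV, while Marco was higher in Mac III. Mertk was most like Tfec (0.972), Axl most like Sulf2 (0.96), Timd4 most like Retnla (0.92) and Cd68 most like Tcirg1 (0.948). In Mac IV, Retnla stood at 16.4 and 348.1 CPM and Timd4 at 248.5 and 59.7. For Cd163 the most like gene was Ppbp (0.995), a platelet chemokine with 209.2 and 34.1 CPM in Mac IV, followed by Folr2 (0.94) and Ccl12 (0.939). For Lyve1 it was Ecscr (0.961), Gpihbp1 (0.953) and Tmem100 (0.94), which are known from endothelium.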

How the data were processed

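Raw read counts per gene and cell, without molecular identifiers, were used as the authors deposited them. The submitters' processing notes name STAR 2.5.2b, HTSeq 0.10 and GRCh38, a human assembly name on a mouse series; their roles and any filter are not given in the sources used here, so overlapping and antisense genes cannot be separated. Cells ranged from 16753 to 7560179 reads (median 1100966); 5 cells under 100000 reads, 2 of them in Mac II to Mac V, were left out of shares. Subtype, animal, gate and run came from the labels. No doublet caller was run, and identical counts occurred in 0 pairs of cells.

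Counts were summed per animal and subtype. edgeR 4.0.16 (R 4.3.3) was run on 8 sums with TMM, filterByExpr and 1 coefficient per subtype, and was tested on simulated data. Alternatives were RLE factors, no filter, DESeq2 1.42.0, all 15 subtypes that have 5 cells or more per animal, the animal as a block, each cell scaled alike, CD45 plates, the shared run, and each library left out. For levels and shares they also included the labelled coverage as library size, the mean of the cells' CPM, 1 or 10 reads in place of 5, and no thinning. Leaving out cells with 3 or more of 8 endothelial markers was chosen after seeing the data. Each animal gave all 15 subtypes that were fitted, so animals pair the sums by design. Between Mac II, Mac III, Mac IV and Mac V, correlations of female minus male differences were 0.00882 to 0.0765. Run DC28 held 288 cells, all female.

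The members and lists were chosen with earlier results of these data known. Open to naming were all members in each comparison, at most the 3 called genes per list with the largest change among those at 50 CPM or more in both animals of the higher subtype, and the 3 genes most like each member. The text gives examples of the last 2 kinds, and 1 gene is left out and not reported here. Intervals and limits cover counting error only.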

Additional observations from a re-analysis of the deposited data

Results flagged for a closer look

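In 4 comparisons a member moved one way in the female and the other way in the male, by at least 0.1 on the log2 scale of CPM plus 1. The difference between the animals was not tested, and with 1 animal of each sex it cannot be. Msr1 in Mac II against Mac III was 0.782 in the female and -0.23 in the male, and in Mac II against Mac V 0.301 and -1.18. Lyve1 in Mac II against Mac III was 3.90 and -1.62, and in Mac II against Mac V 5.57 and -0.216. In both Lyve1 cases 1 female Mac II cell with endothelial markers gave 92.0% of the female Mac II reads. None of the 4 was called in edgeR.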

How the results depend on the processing

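The 17 member calls kept their direction in all 17 alternatives, and 12 were called in each alternative but the fit of all 15 subtypes. That fit called 41, 69, 26, 4, 14 and 18 genes in Mac III against Mac IV, Mac III against Mac V, Mac IV against Mac V, Mac II against Mac III, Mac II against Mac IV and Mac II against Mac V, against 754, 1086, 1018, 163, 567 and 571. DESeq2 called 2295, 2936, 3173, 1189, 2617 and 2585. In the same order, members called were 5, 2, 4, 0, 4 and 2, with all 15 subtypes 0, 1, 1, 0, 0 and 1, and with DESeq2 6, 4, 7, 2, 5 and 5. In the same order, the shared run called 4, 4, 6, 0, 3 and 3 members, and 722, 1035, 924, 157, 568 and 522 genes. The cause of these differences was not tested. Leaving out 1 library at a time gave 207 to 962, 334 to 1381, 361 to 1465, 18 to 166, 148 to 771 and 302 to 484 genes, and 3 to 6, 2 to 5, 3 to 5, 0 to 1, 2 to 6 and 2 to 4 members; the lone sum left is then assumed to vary like the other groups.

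With the animal as a replicate block, members called were 4, 2, 3, 0, 3 and 2 in the order above. Of all 14400 genes, the block called 798, 1047, 901, 189, 547 and 531. Cd163 and Lyve1 lost the calls named with their results, and the block changed no other member call. Some differences that were not called changed sign, on the log2 scale. Stab1 in Mac III against Mac V was -1.28 and became 0.60 in the shared run. Lyve1 in Mac II against Mac III was 2.62 and became -0.57 in the shared run and -0.63 without cells with endothelial markers, and it ran from -1.72 without the female Mac II library to 3.58 without the male one. Mertk in Mac II against Mac III was 0.05 and became -0.077 with cells scaled alike, and it ran from -0.085 without the male Mac II library to 0.167 without the female one, with -0.0802 without the female Mac III library. Msr1 in Mac II against Mac III ran from -0.22 without the female Mac II library to 0.81 without the male one, and in Mac II against Mac V from -1.03 to 0.00904 in the same order. Marco in Mac II against Mac V ran from -1.10 without the female Mac II library to a fitted 15.92 without the female Mac V library, which leaves no Marco read in Mac V. Of the 40 member levels in Mac II to Mac V, 15 moved by more than 1 SD of the animals with the labelled coverage, 9 with the mean of the cells' CPM, 9 in the shared run and 2 without cells with endothelial markers. Of the 40 shares, 20 moved at 1 read, 16 at 10 reads, 4 with no thinning, 9 in the shared run, 4 without cells with endothelial markers and 1 on CD45 plates. With 2 animals, a member that was not called is not shown to be equal.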
